A study of Mus musculus with 4 samples.

Results

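The inhibitory checkpoint receptors described here are 8 genes, Pdcd1, Lag3, Havcr2, Ctla4, Cd160, Btla, Entpd1 and Vsir, chosen from a fixed list of symbols of receptors other than TIGIT. All 8 were found among the 17561 genes of the count table, and none was left out for low counts. They were measured by single-cell RNA sequencing of CD8+ T cells sorted from the bone marrow (BM) of myeloma-bearing mice 28 days after stem cell transplantation (SCT). The 4 treatment groups were isotype control plus vehicle, TIGIT inhibition plus vehicle, isotype control plus lenalidomide, and TIGIT inhibition plus lenalidomide. Antibody was given from the day of transplant and lenalidomide from day 14. Recipients were on a C57BL/6 background, either wild type or transgenic for a modified cereblon (CRBN) that lets lenalidomide act in mice, and received BM cells and T cells from genetically matched donors. CD8+ T cells of 5 mice were pooled in each group, so each group is 1 library. The tables number the libraries 1 to 4 and no source read here ties a number to a treatment, so libraries are given by number and no treatments are compared.

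Inhibitory receptors lower T cell activation through phosphatase recruitment, competition for costimulatory ligands or removal of stimulatory nucleotides. They are induced by antigen receptor signalling, and several of them stay on T cells that meet antigen for a long time, the state called exhaustion (Tex). They differ in their usual distribution: PD-1, LAG-3, TIM-3, CTLA-4 and CD39 mark activated and exhausted cells, whereas CD160, BTLA and VISTA are also found on cells that are not chronically stimulated.

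The genes lie apart in the genome (mm10). Pdcd1 (ENSMUSG00000026285, encoding PD-1) is on chromosome 1 from 94038305 to 94052553, and Ctla4 (ENSMUSG00000026011) is on the same chromosome from 60887000 to 60915832. Lag3 (ENSMUSG00000030124) is on chromosome 6 from 124904361 to 124911705. Havcr2 (ENSMUSG00000020399, encoding TIM-3) is on chromosome 11 from 46454935 to 46481255. Cd160 (ENSMUSG00000038304) is on chromosome 3 from 96798763 to 96829351, where it overlaps Pdzk1 on the opposite strand. Btla (ENSMUSG00000052013) is on chromosome 16 from 45224315 to 45257670. Entpd1 (ENSMUSG00000048120, encoding CD39) spans 129.2 kb of chromosome 19 from 40612366 to 40741602 and is the longest of the 8. Vsir (ENSMUSG00000020101, encoding VISTA) is on chromosome 10 from 60346851 to 60372684, within Cdh23 on the opposite strand.

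NFAT and AP-1 are the factors through which antigen receptor signalling reaches many of these genes. The 250 bases upstream of the annotated start are shown for Pdcd1 and Havcr2, which had the largest ratios to naive cells and whose windows overlap no annotated gene (RefSeq, GRCm38.p6, each on its gene's own strand). Capitals mark matches, on either strand, to the NFAT core GGAAA or the AP-1 motif TGANTCA.
Pdcd1, chr1:94052554-94052803, minus strand: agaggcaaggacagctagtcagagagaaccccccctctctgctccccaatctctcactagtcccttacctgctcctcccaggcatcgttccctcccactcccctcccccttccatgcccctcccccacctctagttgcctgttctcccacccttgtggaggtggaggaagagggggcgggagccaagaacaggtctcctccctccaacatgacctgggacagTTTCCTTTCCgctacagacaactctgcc
Havcr2, chr11:46454681-46454930, plus strand: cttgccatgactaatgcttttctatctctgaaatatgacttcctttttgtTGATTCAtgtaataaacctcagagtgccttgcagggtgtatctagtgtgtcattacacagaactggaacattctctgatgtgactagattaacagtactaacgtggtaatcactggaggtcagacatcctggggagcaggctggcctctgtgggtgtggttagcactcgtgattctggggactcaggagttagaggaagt
The Pdcd1 window held 2 NFAT core matches and no AP-1 match, and the Havcr2 window held 1 AP-1 match and no NFAT core match. Among 32851 promoter windows of the same length, 55.6% held the NFAT core and 6.75% the AP-1 motif. A promoter was found in the table for 7 of the 8 genes.

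The libraries held 11754 cells after the study's filters, between 1725 and 4237 in each, with library medians of 7115 to 7669 UMIs per cell (a UMI, or unique molecular identifier, tags 1 captured transcript). The study sorted them into 8 named clusters: naive cells (Tn, 1342 cells), central memory cells (Tcm, 3418), transitory effector cells (transitory Teff, 1891), GzmB+ Teff (732), GzmA+ Tex (571), TIGIT+ Teff (816), TIM-3+ Tex (1056) and cycling cells (1928). The deposited label of the cycling cells is cycling Tex, and they are kept apart here from the 5 Teff and Tex clusters. In library 3, 31 cells were TIM-3+ Tex. A list of 4 CD8 T cell genes summed to between 2442 CPM (counts of a gene scaled to 1000000 UMIs) in Tcm and 6289 in TIM-3+ Tex, and a list of 5 naive cell genes to 1481 CPM in Tn against 171 to 683 elsewhere. Cd4 and Foxp3 summed to at most 3.53 CPM in any cluster. A list of 9 macrophage genes summed to 1591 CPM in GzmA+ Tex and to at most 102 CPM in the other clusters. A total of 112 cells had a barcode sequence that also occurred in another library. Clusters were made from the same expression values as the receptors and each treatment has 1 library, so levels are described with no test. Intervals are exact 95% intervals that cover counting error only, and the spread over the 4 libraries is given beside them.

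Relative to naive cells, 6 of the 8 receptor transcripts were higher in the 5 Teff and Tex clusters as a whole. Pdcd1, Lag3, Havcr2, Ctla4, Cd160 and Entpd1 were each at least 2-fold higher than in Tn in every library, with 1 CPM added to both sides. Of 7741 genes tested by that rule, 5.27% were higher and 0.581% lower, and 0 of the 8 receptors were lower. With 1 CPM added, the median log2 ratio of the 8 was 2.78, against 0.29 over all genes tested. Btla and Vsir did not pass the rule, with log2 ratios, nothing added, of -0.43 (interval -0.65 to -0.21) and 0.41 (0.31 to 0.51).

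**Figure D1:**
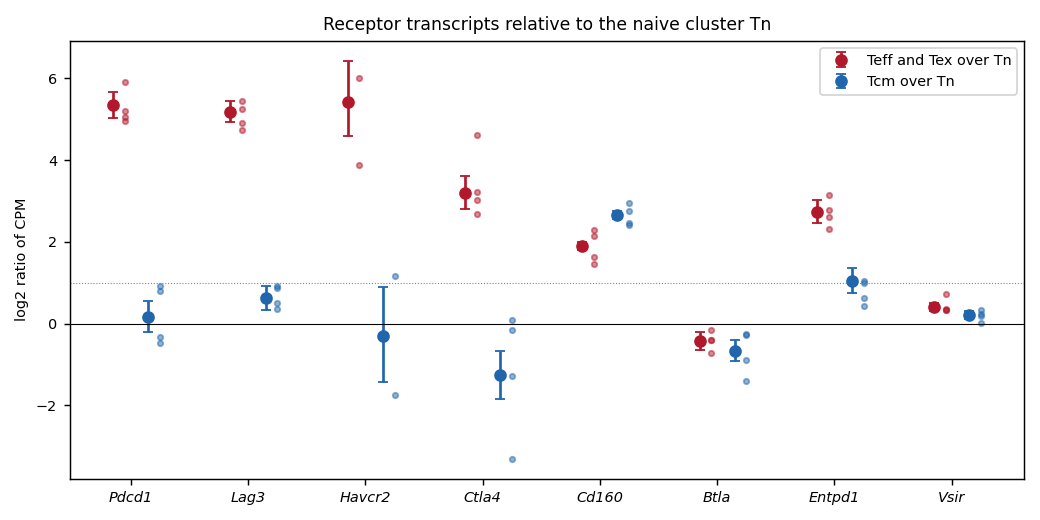
Log2 ratio of CPM to the naive cluster Tn for the 5 Teff and Tex clusters together (red) and for Tcm (blue). Large points are all libraries together with the exact 95% interval, small points single libraries, and the dotted line is 2-fold. Pdcd1, Lag3 and Havcr2 sit above 5 in Teff and Tex, Cd160 has the largest ratio in Tcm, and Havcr2 lacks points for libraries 2 and 4 because Tn held no UMI of it there.

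PD-1 recruits phosphatases to the T cell receptor complex when it binds PD-L1 or PD-L2. Pdcd1 was at 5.86, 9.59, 6.70 and 8.56 CPM in Tn of libraries 1 to 4 and at 541, 492, 500.0 and 474 CPM in TIM-3+ Tex. The groups did not overlap in any library, and Tcm (6.13 to 11.6 CPM) overlapped Tn. The 5 Teff and Tex clusters as 1 group had 40.5-fold the level of Tn (interval 32.7 to 50.8). Pdcd1 was highest in TIM-3+ Tex (509 CPM), then TIGIT+ Teff (336 CPM), each above the next in 4 of 4 libraries. Cycling cells, GzmA+ Tex and transitory Teff followed at 269, 261 and 256 CPM and could not be ordered, since their intervals overlapped and the libraries disagreed. GzmB+ Teff had 143 CPM, less than transitory Teff in all 4 libraries.

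LAG-3 binds MHC class II and other ligands. Lag3 was at 10.9, 15.2, 9.68 and 9.83 CPM in Tn of libraries 1 to 4 and at 721, 677, 909 and 589 CPM in TIM-3+ Tex, 36.2-fold higher (30.3 to 43.5) over all Teff and Tex clusters. Its order of clusters resembled that of Pdcd1, with TIM-3+ Tex (675 CPM) first in 4 of 4 libraries and GzmB+ Teff (206 CPM) the lowest cluster outside Tn and Tcm. TIGIT+ Teff (411 CPM) was second over all libraries, but in library 4 it had 315 CPM and transitory Teff 344 CPM. Lag3 differed from Pdcd1 in Tcm, where its 17.3 CPM was above the 11.3 CPM of Tn in 4 of 4 libraries, a 1.53-fold difference (1.25 to 1.89).

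TIM-3 dampens signalling from the T cell receptor and is used as a marker of late exhaustion. Havcr2 was nearly silent in resting clusters, with 9, 0, 2 and 0 UMIs in Tn of libraries 1 to 4. In libraries 2 and 4 the Teff and Tex clusters were at least 34.7-fold and at least 34.5-fold higher, counted against a floor of 3 UMIs in each library's Tn. In library 1 the ratio was 14.7-fold (7.69 to 32.2). The ratio over all libraries, 43.0-fold (24.0 to 86.4), therefore rests largely on the 9 naive UMIs of library 1: on the log2 scale it was 5.43, and 7.33 without that library. Havcr2 did not separate the cluster named after its protein from the cluster named after TIGIT. TIM-3+ Tex had 74.0, 86.2, 99.998 and 73.3 CPM in libraries 1 to 4 and TIGIT+ Teff had 84.2, 95.8, 74.6 and 47.0 CPM. The order of the 2 clusters turned between libraries, and the log2 difference over all of them was -0.04 (-0.20 to 0.12). Both stood above transitory Teff, at 16.9, 18.4, 29.5 and 13.2 CPM.

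CTLA-4 outcompetes CD28 for CD80 and CD86. Ctla4 was at 5.08, 8.79, 4.47 and 1.59 CPM in Tn and at 50.3, 75.1, 71.9 and 55.0 CPM in TIM-3+ Tex of libraries 1 to 4, and over all Teff and Tex clusters it was 9.13-fold the level of Tn (6.93 to 12.3). Levels in TIM-3+ Tex (56.9 CPM) and TIGIT+ Teff (52.4 CPM) had overlapping intervals. Ctla4 was lower in Tcm than in Tn, at 1.99 against 4.77 CPM, a log2 ratio of -1.26 (-1.85 to -0.68). That ratio ran from above 0 to below -3 among libraries, so Tcm and Tn could not be ordered for this gene.

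CD39 hydrolyses extracellular ATP and ADP, and the enzyme CD73 turns the product into adenosine. Entpd1 was at 12.1, 7.99, 8.94 and 11.7 CPM in Tn and reached 112, 98.1, 120 and 64.5 CPM in TIGIT+ Teff of libraries 1 to 4. The Teff and Tex clusters together were 6.62-fold above Tn (5.48 to 8.07). Its highest levels, in TIGIT+ Teff (109 CPM) and TIM-3+ Tex (96.3 CPM), had overlapping intervals. Entpd1 was also 2.07-fold higher in Tcm than in Tn (1.69 to 2.56), in 4 of 4 libraries, without reaching 2-fold in each. Nt5e, which encodes CD73, went the other way and was at 5.54 CPM in Tcm against 17.3 CPM in Tn.

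**Figure D2:**
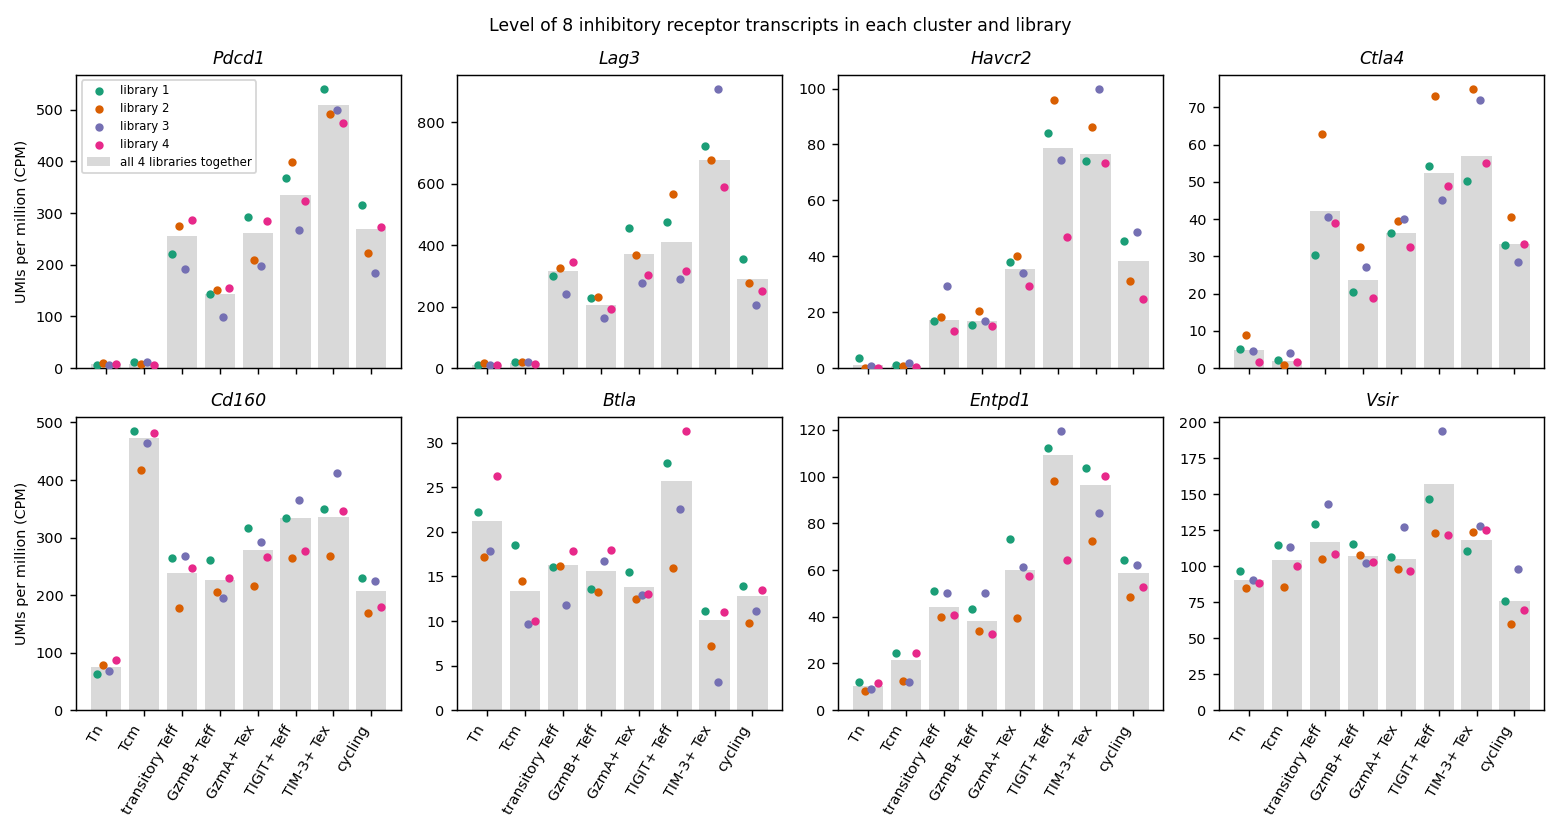
Level in CPM of each receptor transcript in the 8 clusters, on linear axes that start at 0 and differ between panels. Grey bars are all 4 libraries together and coloured points are libraries 1 to 4. Pdcd1 and Lag3 peak in TIM-3+ Tex, Havcr2 and Entpd1 are similar in TIGIT+ Teff and TIM-3+ Tex, Cd160 peaks in Tcm, Btla stays between 10.2 and 25.7 CPM, and Vsir between 75.8 and 157 CPM.

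Cd160 was the 1 receptor of the 8 that was highest in Tcm. CD160 and BTLA both bind HVEM (Tnfrsf14), and CD160 is also carried by natural killer cells and memory-like CD8+ T cells. Cd160 was at 486, 417, 464 and 481 CPM in Tcm of libraries 1 to 4 and at 63.3, 78.3, 68.5 and 87.8 CPM in Tn, a 6.29-fold difference (5.86 to 6.76) with no overlap. It was called at least 2-fold higher in Tcm over Tn in each library, as were 2.04% of 7392 genes, and was the 1 receptor called of the 5 tested, since Pdcd1, Havcr2 and Ctla4 were under 10 CPM in both clusters. In the 5 Teff and Tex clusters Cd160 was at 280 CPM, below Tcm by 0.75 on the log2 scale (0.72 to 0.79). Cd160 was not called in that comparison, whereas Pdcd1, Lag3, Havcr2, Ctla4 and Entpd1 were called higher in Teff and Tex than in Tcm, as were 2.95% of 7763 genes. TIM-3+ Tex and TIGIT+ Teff had 336 and 334 CPM of Cd160, with overlapping intervals. A UMI of Cd160 was detected in 65.2% of Tcm (63.6% to 66.8%) and 14.0% of Tn after each cell was thinned to 2500 UMIs, a share that does not separate fewer cells with the transcript from less transcript per cell. Other markers moved with Tcm as well. Cd8b1, which encodes the beta chain of CD8, was at 217 CPM in Tcm against 934 to 1327 CPM in the other clusters, with a UMI in 52.0% of Tcm and 86.7% to 98.4% of the other clusters' cells. Il7r was at 25.5 CPM in Tcm and 395 CPM in Tn. Ncr1, a natural killer cell gene, was at 4.92 CPM in Tcm and 0 to 4.14 CPM elsewhere. The part of these differences in the level of Cd160 was not tested.

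BTLA carries inhibitory motifs in its tail and VISTA binds PSGL-1. Btla was low throughout, between 10.2 CPM in TIM-3+ Tex and 25.7 CPM in TIGIT+ Teff, and Tn (17.2 to 26.3 CPM over libraries) was among the higher clusters. It was the 1 receptor called lower in TIM-3+ Tex than in TIGIT+ Teff, as were 2.22% of 8203 genes, with 11.1, 7.23, 3.12 and 11.1 CPM against 27.7, 15.96, 22.6 and 31.4 CPM in libraries 1 to 4. The log2 ratio was -1.34 (-1.71 to -0.98), and it rested on 104 and 165 UMIs. The lowest value, in library 3, was 1 UMI in 31 cells, below the floor of 9.37 CPM there, and the 15.96 CPM of library 2 was 7 UMIs. Between these 2 clusters, with 1 CPM added, the median log2 ratio was -0.32 over all genes tested. It was -0.30 over genes of 10 to 50 kb, the class that holds Btla. The part of this general shift in the Btla value was not tested. Vsir was the most even of the 8, from 75.8 CPM in cycling cells to 157 CPM in TIGIT+ Teff.

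Within the Teff and Tex clusters, Havcr2 was the receptor that differed most between clusters. TIM-3+ Tex was 4.47-fold above transitory Teff (3.85 to 5.21) and TIGIT+ Teff 4.60-fold (3.92 to 5.41). It was the 1 receptor called in each of these comparisons, which share transitory Teff, against 0.447% of 7606 genes for TIM-3+ Tex and 3.30% of 8204 genes for TIGIT+ Teff. Lag3, Entpd1 and Pdcd1 were 2.14-fold (2.06 to 2.22), 2.17-fold (1.96 to 2.41) and 1.99-fold (1.90 to 2.08) higher in TIM-3+ Tex than in transitory Teff, without reaching 2-fold in every library. Entpd1 was 2.46-fold higher in TIGIT+ Teff than in transitory Teff (2.20 to 2.75). In that comparison long genes were raised as a class: the median log2 ratio was -0.12 over 2000 genes under 10 kb, 0.36 over 4026 genes of 10 to 50 kb and 0.86 over 2178 longer genes, the class that holds Entpd1. The mean mitochondrial share of UMIs was also higher in TIGIT+ Teff, at 3.53% to 3.81% over libraries, than in transitory Teff (1.68% to 1.88%) and TIM-3+ Tex (1.68% to 1.70%). The part of gene length and of this share in the Havcr2, Entpd1 and receptor number of TIGIT+ Teff was not tested. GzmA+ Tex differed little from transitory Teff in Pdcd1 (log2 ratio 0.03, -0.06 to 0.11) and had 2.07-fold more Havcr2 (1.71 to 2.49). Havcr2 was not called there, and with 1 CPM added its log2 ratio ran from 0.21 to 1.12 over libraries.

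Cycling cells had slightly lower levels of every receptor than the 5 Teff and Tex clusters. The log2 ratios ran from -0.18 for Havcr2 to -0.66 for Vsir, all intervals lay below 0, and none was called (0.338% of 7990 genes were called lower). With 1 CPM added, the Havcr2 ratio ran from -0.41 to 0.02 over libraries. Single clusters lay on both sides of the cycling cells. Havcr2 was at 38.3 CPM in cycling cells, above transitory Teff (17.2 CPM) and below TIM-3+ Tex (76.7 CPM). Entpd1 was at 58.8 CPM, between the same clusters at 44.4 and 96.3 CPM. These are shares of all UMIs, and cycling cells had a median of 13960 UMIs against 5545 in transitory Teff, so a lower CPM does not mean fewer transcripts per cell. Without thinning, a UMI of Pdcd1 was found in 79.1% of cycling cells and in 57.6% of transitory Teff, and after thinning in 41.5% and 38.6%.

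Because depth differed between clusters, the number of receptors detected in each cell was counted after each cell was thinned at random to 2500 UMIs. TIM-3+ Tex cells carried the most, with a mean of 2.80 of the 8 (library means 2.73 to 2.94), followed by TIGIT+ Teff at 2.52 (2.28 to 2.61). GzmA+ Tex had 1.92, transitory Teff 1.73, cycling cells 1.72, GzmB+ Teff 1.33, Tcm 1.02 and Tn 0.46. TIM-3+ Tex was above TIGIT+ Teff in 4 of 4 libraries, while transitory Teff and cycling cells changed places between libraries. The order of the 8 clusters was the same at 5000 UMIs per cell. Without Havcr2, whose protein names the cluster, TIM-3+ Tex still had 2.61 and TIGIT+ Teff 2.37 of the other 7.

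At least 3 receptors were detected in 60.8% of TIM-3+ Tex (57.8% to 63.8%), 48.8% of TIGIT+ Teff (45.3% to 52.3%), 25.2% of transitory Teff (23.2% to 27.2%) and 0.447% of Tn (0.164% to 0.970%). At least 5 were detected in 221 of all 11754 cells, of which 76 were TIM-3+ Tex and 66 TIGIT+ Teff, and the most in any cell was 7. None of the 8 was detected in 1.70% of TIM-3+ Tex and 61.5% of Tn. In Tcm, 53.8% of cells had exactly 1 receptor.

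**Figure D3:**
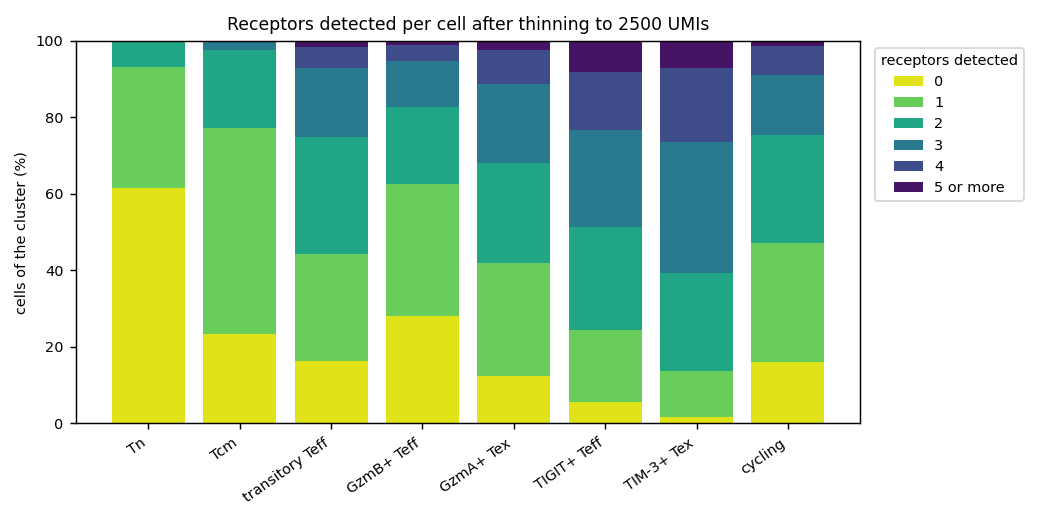
Share of cells in each cluster (percent) by how many of the 8 receptor transcripts were detected after thinning every cell to 2500 UMIs, all libraries together. The 3 darkest colours are cells with 3 or more receptors, which make up 60.8% of TIM-3+ Tex and 0.447% of Tn.

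The genes behind these counts differed in how often a single cell showed them. In TIM-3+ Tex, Lag3 was detected in 74.9% of cells (library range 69.6% to 90.3%), Pdcd1 in 70.7% (63.0% to 75.5%), Cd160 in 47.2%, Vsir in 28.4%, Entpd1 in 23.2%, Havcr2 in 18.6% (17.1% to 25.8%), Ctla4 in 14.4% and Btla in 2.56%. Most cells of the cluster named for TIM-3 thus had no Havcr2 UMI at this depth, and 39.4% had one without thinning, at a median of 8434 UMIs. In Tn, Pdcd1 was detected in 1.79%, Lag3 in 2.46%, Ctla4 in 0.969% and Havcr2 in 0 of 1342 cells. For Havcr2 this allows a share of up to 0.224% of cells with a UMI at this depth (3 counts of the total). Free RNA was not measured, and whether the UMIs in Tn came from it or from the cells themselves was not tested. Without thinning, 0.820% of Tn had a Havcr2 UMI. For the 5 receptors of activated cells (Pdcd1, Lag3, Havcr2, Ctla4 and Entpd1), the commonest state of TIM-3+ Tex was Pdcd1 with Lag3 and none of the others of this group, in 27.7% of cells. In transitory Teff none of the 5 was commonest (34.2%), and Pdcd1 with Lag3 came next (17.3%).

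Receptors of the activated group were found in the same cells more often than the cluster and library of a cell would give. Within cluster and library, over the 6 clusters other than Tn and Tcm, cells with Pdcd1 had 2.66 times the odds of Lag3 (interval 2.41 to 2.95, libraries 2.33 to 3.70). The odds ratio was 1.998 for Pdcd1 and Havcr2 (1.67 to 2.39), 1.91 for Lag3 and Havcr2 (1.59 to 2.28), 1.81 for Lag3 and Ctla4 (1.53 to 2.15) and 1.77 for Havcr2 and Entpd1 (1.46 to 2.15). Of 28 pairs, 10 had an interval above 1, and 9 of these were pairs among Pdcd1, Lag3, Havcr2, Ctla4 and Entpd1. The pair of Ctla4 and Entpd1 did not (1.14, 0.93 to 1.40), and Entpd1 and Vsir did (1.18, 1.02 to 1.36). The association of Pdcd1 with Lag3 was tightest in GzmB+ Teff, with an odds ratio of 7.56 (5.14 to 11.1), and loosest in TIM-3+ Tex at 1.48 (1.10 to 2.0002), where most cells had both.

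Cd160 stood apart here too. Its odds ratio was 0.76 with Havcr2 (0.64 to 0.91) and 0.80 with Ctla4 (0.68 to 0.94), the 2 pairs of 28 with an interval below 1, and 1.09 with Pdcd1 (0.98 to 1.21). Within single clusters, the interval with Havcr2 lay below 1 only in TIM-3+ Tex (0.46, 0.33 to 0.64). That with Ctla4 did so only in TIGIT+ Teff (0.49, 0.32 to 0.74). With Pdcd1 the interval lay below 1 in TIM-3+ Tex (0.75, 0.57 to 0.98) and above 1 in transitory Teff (1.30, 1.07 to 1.58). It included 1 in the other clusters. Without library 4 no pooled pair had an interval below 1, and without thinning the pooled ratios with Havcr2 and Ctla4 turned above 1, to 1.16 and 1.11. The pooled intervals below 1 therefore depend on that library, and the low pooled ratios on equal depth. In single libraries the ratio of Cd160 with Ctla4 was 0.63 to 0.96, and that with Havcr2 was 0.45 to 1.10. Cells with a Tigit UMI had more of the 8 receptors than cells without one in every Teff and Tex cluster, for example 2.18 against 1.06 in GzmB+ Teff and 2.03 against 1.45 in transitory Teff. In each of the 5 clusters the difference held in 4 of 4 libraries. Tigit itself was highest in TIM-3+ Tex (567 CPM), above the cluster named TIGIT+ Teff (313 CPM) and transitory Teff (338 CPM). The order of the last pair rests on library 4 (359 against 431 CPM), since TIGIT+ Teff was the higher in libraries 1 to 3 (334 against 289, 388 against 287, and 243 against 242 CPM).

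**Figure D4:**
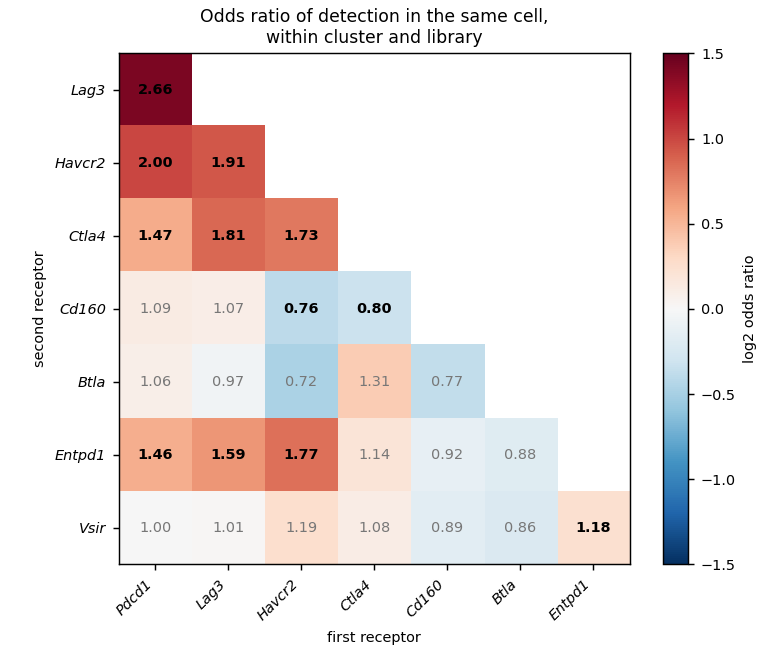
Odds ratio of detecting a pair of receptors in the same cell, pooled over cluster and library strata in the 6 clusters other than Tn and Tcm, with colour on a log2 scale. Bold values have a 95% interval that does not include 1. Red cells gather among Pdcd1, Lag3, Havcr2, Ctla4 and Entpd1, and the blue bold cells are Cd160 with Havcr2 and with Ctla4.

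Receptor number was higher in cells of larger clones. T cells of 1 clonotype descend from 1 cell and carry the same antigen receptor, and a clonotype was called expanded when its library held more than 5 of its cells. In transitory Teff, cells of expanded clones had a mean of 1.97 receptors and cells of single clones 1.28, from 866 and 368 cells. The difference was 0.81, 0.72, 0.84 and 0.46 in libraries 1 to 4, above 0 in each. Cells of a clone are not independent, and with 1 value for each clonotype in each library the difference was 0.70 over 86 expanded and 368 single values. A clonotype found in more than 1 library counts in each, and the distinct clonotypes numbered 79 and 366. Pdcd1 and Lag3 carried most of it, being detected in 48.5% and 54.3% of cells of expanded clones against 21.5% and 28.3% of cells of single clones. Vsir did not follow, at 27.2% against 29.6%.

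By level, Pdcd1 was 2.58-fold higher in expanded clones (2.29 to 2.91), Lag3 2.54-fold (2.28 to 2.83) and Ctla4 2.305-fold (1.75 to 3.08). Pdcd1 had 326, 383, 274 and 361 CPM in expanded clones and 86.3, 124, 131 and 183 CPM in single clones of libraries 1 to 4. None of the 8 was called in every library, where 0.118% of 7623 genes were called higher, Tox and Tigit among them. Cd160 (1.10-fold, 0.99 to 1.22) and Btla (0.91-fold, 0.62 to 1.34) had intervals that include no difference.

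The same direction was seen in 4 of 4 libraries in 4 other clusters. In GzmB+ Teff expanded clones had 2.3 receptors per cell and single clones 0.85, and Pdcd1 was detected in 58.9% and 6.37% of their cells. The difference was 1.45 there (libraries 1.14 to 1.74), 1.17 in GzmA+ Tex (0.88 to 1.61), 0.88 in TIGIT+ Teff (0.44 to 1.49) and 0.63 in cycling cells (0.52 to 0.72). In TIM-3+ Tex it was 0.34 and above 0 in 2 of 4 libraries, with 42 cells of single clones in all. Some library values in the other clusters also rest on few cells. In TIGIT+ Teff, the 1.49 of library 2 came from 5 cells of expanded and 11 of single clones. The 0.44 of library 4 came from 14 and 9 cells. Library 3 held 12 cells of expanded clones in GzmB+ Teff and 16 in GzmA+ Tex. An antigen receptor was recorded for 76.4% of transitory Teff and 44.6% of TIGIT+ Teff, and cells without one are not in these comparisons.

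**Figure D5:**
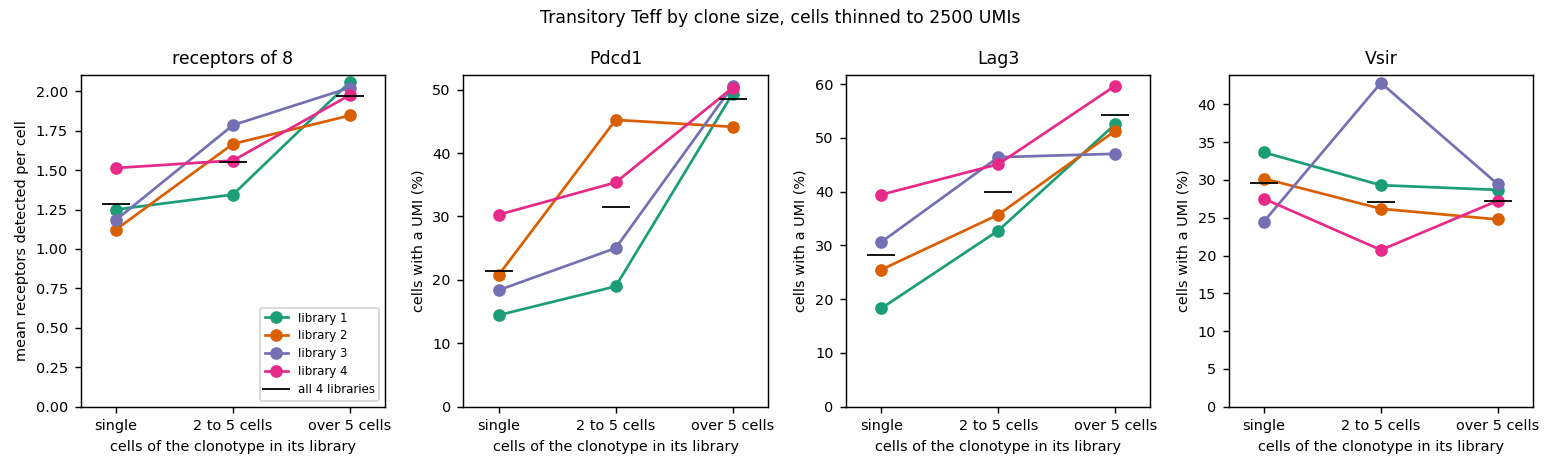
Transitory Teff by the size of a cell's clonotype in its library, after thinning to 2500 UMIs, with 1 line per library and black bars for all libraries together. The left panel gives the mean number of the 8 receptors per cell and the others the percent of cells with a UMI of Pdcd1, Lag3 or Vsir. Receptor number, Pdcd1 and Lag3 are higher in expanded than in single clones in each library, and Vsir has no common direction.

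Between libraries, several receptors kept the same rank across clusters. Over the 6 clusters other than Tn and Tcm, Havcr2 was lowest in library 4 in 6 of 6 clusters, as in cycling cells with 24.8 CPM against 45.5, 31.2 and 48.7 CPM in libraries 1 to 3. The gap was within counting error in TIM-3+ Tex, with 73.3 CPM in library 4 and 74.0 CPM in library 1. The same held in GzmB+ Teff, with 15.1 CPM in library 4 and 15.5 CPM in library 1. A rank of lowest in library 4 in at least 5 of the 6 clusters was held by 3.70% of 7074 genes. Ctla4 was highest in library 2 in 5 clusters (1.80% of genes were), with 62.9 CPM in transitory Teff against 30.3, 40.5 and 39.1 CPM. Cd160 was lowest in library 2 in 5 clusters (5.48% of genes). Pdcd1 and Lag3 were lowest in library 3 in 5 clusters (5.88%), and TIM-3+ Tex was the exception for both. Vsir was highest in library 3 in 5 clusters (8.76%). Each of these is a difference between single pools of mice with no replicate, and which treatment a library had was not used. The library and the direction were read from the data for each receptor, so more genes hold some such rank than any single share shows.

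Macrophage transcripts, which moved with GzmA+ Tex, were set beside the receptor levels there. At least 1 UMI of 7 macrophage genes was found in 91.8% of GzmA+ Tex. The 47 cells with none had 261 CPM of Pdcd1 and 28.1 CPM of Havcr2, and the 420 cells with 3 or more had 263 and 36.6 CPM. Lag3 was at 488 CPM in the cells with none and 364 CPM in those with 3 or more. Vsir, which macrophages also express, was at 94.6 CPM in the former and 105 CPM in the latter.

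Other genes of these pathways were followed over the same contrast of Teff and Tex with Tn, with 1 CPM added to both sides. Among ligands, 5 of 10 tested genes were called higher, namely H2-Ab1 (log2 ratio 4.20), H2-Eb1 (4.19), H2-Aa (4.16), Lgals3 (3.43) and Cd86 (1.90), and 0 lower. The 3 MHC class II genes are ligands of LAG-3 made mainly by macrophages and other antigen-presenting cells. Macrophage transcripts were highest in GzmA+ Tex (1591 CPM), and their part in these values was not tested. Among signalling partners 1 of 12 was higher, Ptpn11 (1.36), which encodes the phosphatase SHP-2, while Ptpn6 was at -0.06. In the adenosine pathway 0 of 3 tested genes passed the rule. Of all genes tested 5.27% were called higher. The counts of signalling partners and adenosine genes are near that share, and the count of ligands is above it.

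Of 17 transcription factors, 7 were higher and 0 lower: Maf (4.10), Nr4a2 (3.75), Prdm1 (3.64), Tox (3.11), Irf4 (2.35) and Batf (1.95) in order of size, and Nfatc1 (1.43). Tox is needed for the exhausted state and Prdm1 encodes BLIMP-1. Of 7 paired activating receptors 3 were higher, Tnfrsf9 (3.63), Tnfrsf4 (2.58) and Icos (1.32), whereas Cd28, the competitor of CTLA-4, was at 0.33. Of 10 other inhibitory receptors 5 were higher, Tigit (4.44), Cd244a (4.35), Cd200r1 (4.30), Klrg1 (3.64) and Lilrb4a (1.70). The same rule called 5.27% of all genes tested higher, a smaller share than in each of these lists, which were chosen with earlier results known.

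The genes whose levels ran most like each receptor were found over the 32 sums of cluster and library. These sums share cells, depth and the clustering, so the Pearson coefficients are descriptions. Pdcd1 and Lag3 were each other's nearest gene among 7074 (r = 0.99), followed for both by Tox (0.98), then Gzmk for Pdcd1 (0.98) and Tigit for Lag3 (0.98). Havcr2 ran most like Prdm1 (0.96), Vmp1 (0.96) and 2900026A02Rik (0.95). Ctla4 ran like Pdcd1 (0.96), Lag3 (0.96) and Bcl2a1b (0.95), and Entpd1 like Hip1 (0.96), Baiap3 (0.95) and Prdm1 (0.94). Cd160 had other neighbours, Efhd2 (0.93), Gem (0.93) and Klre1 (0.91), and correlated weakly with Pdcd1 (0.34). Btla ran like Il18r1 (0.81), Sidt1 (0.81) and Ssh2 (0.79), and Vsir like Crebrf (0.86), Arhgap45 (0.85) and Pbxip1 (0.83).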

How the data were processed

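The authors captured CD8+ T cells with the 10x Genomics 5′ kit and made UMI counts per gene and cell with Cell Ranger 7.00 on mm10 (submitters' processing notes). Per the study's methods, libraries were downsampled so that their depth was similar, cells were filtered on UMIs, mitochondrial share and Cd3 and Cd8a expression, and clusters were found with Monocle3. The deposited counts, cluster names, mitochondrial fractions and T cell receptor sequences of 11754 cells in 4 libraries were used as given. The column total equalled the recorded UMI number in all 11754 cells. The deposited mitochondrial fraction (a fraction of UMIs) was used only to describe clusters. Doublets were not called here, and 722 cells with more than 1 TRB chain were left out in an alternative.

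CPM is UMIs of a gene over all UMIs of the cells summed, with an exact Poisson interval. Ratios have exact conditional binomial intervals, shares exact Clopper-Pearson intervals, and odds ratios Mantel-Haenszel estimates with Robins-Breslow-Greenland intervals. A gene was called when 2-fold apart in each of 4 libraries with 1 CPM added, among genes of 10 CPM or more on either side. Library ranks and likeness used genes of 20 CPM or more in a cluster, likeness on log2(CPM + 5). The named genes are the 8 receptors, the 3 nearest genes of each, and up to 6 genes past the rule, by size, from each list, with Nfatc1 named as the 1 left over. The remaining list genes named below the rule were chosen after their values were seen. The members and lists were chosen with earlier results of these data known. The scripts (Python 3.11.15, numpy 2.4.6, scipy 1.17.1, pandas 2.3.3) were tested on simulated data. Alternatives are listed in the closing section. No test between treatments was run, since each has 1 library.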

Additional observations from a re-analysis of the deposited data

How the results depend on the processing

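Levels rest on 1 pool of 5 mice per treatment, so spread between mice cannot be given, and intervals cover counting error only. A value counted as moved when it shifted by more than 1 SD over the 4 libraries. No paired analysis was possible because each group has 1 library and no result comes from a test between groups. The cause of the shifts was not tested except where the setting's own construction gives it.

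For the log2 ratio of Teff and Tex to Tn, the 6 receptors called higher kept that direction under every alternative that gave a value. Using only cells with no macrophage, B or plasma cell UMI (4515 of 11754 cells) gave 6.32 for Pdcd1, 5.58 for Lag3 and -0.17 for Btla. Counting each clonotype once gave 4.84 for Pdcd1, 4.58 for Lag3 and -0.037 for Btla. Assigning cells by Leiden number, which renames 837 cells, gave 4.79 for Lag3 and 1.39 for Cd160. Thinning gave -0.035 for Btla and 3.31 for Entpd1, and gave no value for Havcr2, which then had no UMI in Tn. Leaving out 1 library at a time gave 5.07 to 7.33 for Havcr2, with 7.33 without library 1, 5.13 to 5.47 for Pdcd1 and 5.01 to 5.33 for Lag3.

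For receptors per cell, in the order Tn, Tcm, transitory Teff, GzmB+ Teff, GzmA+ Tex, TIGIT+ Teff, TIM-3+ Tex and cycling, no thinning gave 1.21, 1.80, 2.89, 2.55, 3.90, 4.05, 4.72 and 4.09. Thinning to 5000 UMIs (9532 cells) gave 0.85, 1.52, 2.64, 1.90, 2.81, 3.44, 3.78 and 2.62. Requiring 2 UMIs gave 0.056, 0.36, 0.57, 0.42, 0.62, 0.94, 1.24 and 0.50. The filter on macrophage, B and plasma cell UMIs gave 0.49 in Tn, 1.44 in GzmB+ Teff, 2.12 in GzmA+ Tex (17 cells) and 2.71 in TIGIT+ Teff. Leiden numbers gave 0.50 in Tn, 1.56 in transitory Teff and 1.49 in GzmB+ Teff. Another seed gave 0.47 in Tn, and leaving out Havcr2 gave 2.61 in TIM-3+ Tex. Leaving out 1 library at a time gave 2.75 to 2.83 in TIM-3+ Tex and 1.56 to 1.79 in cycling cells.

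The number of pairs with an interval above 1 was 25 without thinning, and 9 to 11 when 1 library was left out. Of the 10 pairs reported, 9 were above 1 with strata by UMI number as well. The number below 1 was 0 without thinning and 0 to 3 when 1 library was left out, with 0 without library 4. The odds ratios of Cd160 with Havcr2 and Ctla4 turned to 1.16 and 1.11 without thinning. The difference between expanded and single clones was 0.89 with TRB alone and 0.64 to 0.78 when 1 library was left out. It was not recomputed with Leiden numbers, by which transitory Teff held 1373 cells in place of 1891. Genes called over Tn numbered 684 higher and 86 lower over all libraries together, and 139 and 23 at 50 CPM or more, where 4.73% of 2936 genes were higher and 4 receptors were called, Havcr2 and Ctla4 being below that level. Leaving out cells with any of 7 macrophage genes, an alternative chosen after seeing the data, shifted no ratio to Tn and no mean number of receptors by more than the spread between libraries.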
